A study of Mus musculus with 4 samples.

Results

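RAD21 binding inside exons, away from the ends of genes, was examined in 2 deposited lists of RAD21 peaks from mouse cells. A summit, the position where the reads of a peak pile up highest, was counted where it fell in an exon of a protein-coding gene on mm9, more than 1000 bp from any transcription start and more than 1000 bp from the 3′ end of any protein-coding gene. An EB summit within 250 bp of an ESC summit counted with it as 1 site. The rule found 350 sites in 340 genes, among 18691 autosomal RAD21 sites. The rule does not ask that the exon be internal to its transcript, and for many sites it was not. In the transcript that best described each site, 153 lay in an exon that was neither first nor last, 190 in the last exon, 4 in the first and 3 in a gene model of 1 exon. They are therefore called exon sites here.

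The ESC libraries came from R1/E mouse embryonic stem cells at day 0, kept undifferentiated with LIF. The EB libraries came from embryoid bodies of the same line at day 12 of differentiation, mixed aggregates grown from hanging drops. All 4 libraries, the IgG controls included, came from cells that carried a bacterial artificial chromosome with a GFP-tagged Rad21 gene, in addition to their own Rad21 genes, and came from resistant clones sorted for GFP. RAD21 was precipitated with a goat antibody against GFP. The controls were labelled as goat IgG, although their descriptions also speak of input DNA. In EBs, a site bound in fewer cells and a site bound less in each cell cannot be told apart.

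There was 1 library for each of the 4 combinations of cell type and antibody, so no value has a replicate error, and each interval given below covers counting error alone. The libraries held between 6929293 and 13714772 autosomal reads, fewer in both EB libraries than in the ESC libraries. The EB libraries also held fewer reads in GC-rich DNA. Between the class of random windows poorest in G and C and the richest, EB reads over ESC reads, both scaled to depth and on the log2 scale, fell from 0.34 to -0.66 for RAD21 and from 0.29 to -0.60 for IgG. This difference bears on each comparison of the cell types below. Calls were therefore also made with each GC class scaled by its own random windows, named equal GC here, and calls that this ended are named. The classes are broad, and the richest takes all GC from 50.1% upward, so sites within a class still differ in GC.

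RAD21 is the kleisin subunit of cohesin, the ring complex that holds sister chromatids together and forms chromatin loops. In mammalian interphase chromatin most cohesin sites lie at sites of CTCF, a zinc finger protein that reads a long, asymmetric DNA motif and stops cohesin on one side of it. The DNA of a coding exon must hold the codons of a protein as well, so a motif there shares its bases with the reading frame.

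The motif was learned from these peaks as a matrix of 20 positions, and the matrices from odd and from even chromosomes gave the same consensus. The sequences below show how the motif sat in or beside coding exons of members. Each runs 5′ to 3′ on the strand of the motif, with the 20 bases of the motif in capitals. Those of Dtl, Myom3, Nbea and Tril are named sites in coding exons that had the motif. Slc47a1 had the highest score among the coding sites named, and its best match, shown in capitals, missed the threshold. The others are 6 members with high-scoring motifs wholly in coding sequence.
Learned consensus: GTGGCCACCAGGGGGCGCCA
Dtl, chr1:193386857-193386956, minus strand: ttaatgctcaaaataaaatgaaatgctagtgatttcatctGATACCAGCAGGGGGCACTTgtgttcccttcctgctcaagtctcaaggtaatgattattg
Myom3, chr4:135357520-135357619, plus strand: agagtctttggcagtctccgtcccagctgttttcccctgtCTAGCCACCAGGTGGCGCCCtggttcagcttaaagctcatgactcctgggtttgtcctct
Nbea, chr3:55812030-55812129, plus strand: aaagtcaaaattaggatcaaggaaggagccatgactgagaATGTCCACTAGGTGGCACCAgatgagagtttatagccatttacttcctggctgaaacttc
Tril, chr6:53768858-53768957, plus strand: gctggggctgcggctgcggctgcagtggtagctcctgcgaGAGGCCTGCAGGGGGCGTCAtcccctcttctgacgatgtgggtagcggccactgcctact
Slc47a1, chr11:61162997-61163096, plus strand: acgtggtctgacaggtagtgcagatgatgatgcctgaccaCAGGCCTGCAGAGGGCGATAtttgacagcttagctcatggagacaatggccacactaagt
9030617O03Rik, chr12:102079574-102079673, minus strand: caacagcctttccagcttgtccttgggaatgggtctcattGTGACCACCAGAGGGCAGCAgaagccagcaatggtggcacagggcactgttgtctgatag
Klf10, chr15:38227159-38227258, plus strand: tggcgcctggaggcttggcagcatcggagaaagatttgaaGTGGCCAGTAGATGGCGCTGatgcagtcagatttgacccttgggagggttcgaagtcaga
Lrrk1, chr7:73445728-73445827, minus strand: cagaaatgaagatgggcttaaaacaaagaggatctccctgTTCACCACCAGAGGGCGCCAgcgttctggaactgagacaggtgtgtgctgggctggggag
Yipf7, chr5:69912292-69912391, minus strand: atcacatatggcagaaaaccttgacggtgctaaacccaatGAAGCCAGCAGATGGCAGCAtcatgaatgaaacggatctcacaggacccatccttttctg
1500009C09Rik, chr15:82090095-82090194, minus strand: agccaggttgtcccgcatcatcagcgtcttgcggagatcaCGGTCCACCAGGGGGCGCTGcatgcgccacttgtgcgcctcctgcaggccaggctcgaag
D6Wsu163e, chr6:126905893-126905992, plus strand: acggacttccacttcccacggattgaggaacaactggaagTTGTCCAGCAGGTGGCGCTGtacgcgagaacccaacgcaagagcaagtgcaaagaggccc

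The motif of 9030617O03Rik scored highest of these, at 26.3 bits, and equalled the consensus at 16 of its 20 positions. That of Klf10, a Krüppel-like zinc finger gene, scored 25.4 bits and lay with its flanks wholly in coding sequence. At Dtl, Myom3 and Nbea the 100 bases shown held 0 coding bases, although the summit lay in a coding exon. There the motif stood in the intron beside the exon. For 5 named sites in 3′ untranslated regions (UTRs) only the motif is shown, to compare it with the coding ones.
Rnf150, chr8:85613469-85613488, minus strand: CAGACCAGCAGAGGGCGCTC
Dcp1b, chr6:119170483-119170502, plus strand: ATAACCACCAGGGGGCAATA
Spata1, chr3:146149613-146149632, plus strand: GAGACCAGAAGAGGGCAGCA
Kif21b, chr1:138071956-138071975, minus strand: TGTTCCAGTAGGGGGCGCTA
Thada, chr17:84590427-84590446, minus strand: AACACCAGCAGGTGGCGCTC

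Coding sequence and 3′ UTRs held most exon sites. The summit lay in coding sequence at 156 sites (44.6%, 95% interval 39.3 to 49.9), in a 3′ UTR at 132 (37.7%, 32.6 to 43.0) and in a 5′ UTR at 6. At 53 sites the exon belonged only to a non-coding transcript of the gene, and at 3 to a transcript marked for nonsense-mediated decay. Of the coding sites, 137 lay in an internal exon and 17 in the last one. Of the 190 sites in a last exon, 119 lay in a transcript that ended within 100 bp of the annotated end of the gene, and the others in transcripts that stopped short of it. An exon of the transcript with the longest coding sequence held 73.1% of the 350 sites (68.2 to 77.7). Of the 156 coding sites, 148 lay in an exon of every coding transcript that spanned the position.

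The exons themselves differed in size with the annotation. Exons with a coding site had a median length of 147 bp (136 to 168), and the summit lay a median of 34 bp (26 to 43) from the nearer edge of the exon. Exons with a 3′ UTR site had a median length of 3162 bp (2620 to 3473). The median coding exon was thus shorter than the DNA fragments, and in such an exon a summit cannot be told apart from one just outside it in the intron. Long coding exons were exceptions, such as the 5355 bp exon of Tril. The median exon site lay 9262.5 bp (7619 to 10544) from the nearest transcription start and 18732.5 bp (16211 to 24914) from the next RAD21 site.

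Relative to the DNA available, the density of sites was below that of introns in coding sequence and above it in 3′ UTRs, and for all exons the interval of the ratio held 1. The rule left 40.8 Mb of exon, with 8.57 sites per Mb (7.69 to 9.51), against 8.07 (7.87 to 8.26) in introns and 7.02 (6.88 to 7.16) between genes under the same distance limits. The density of exons over that of introns was 1.06 (0.951 to 1.18). Sites of both lists counted in exons where either summit lay there, which favours exons. Placed by the ESC summit, the exon sites numbered 337. Coding sequence held 6.82 sites per Mb, 0.846 times the intron density (0.717 to 0.992). The 3′ UTRs held 10.97 sites per Mb, 1.36 times (1.14 to 1.62). Coding sequence also held fewer IgG reads per base than introns, 0.904 times as many. Per IgG read the ratio was 0.936 (0.794 to 1.10) for coding sequence and 1.32 (1.10 to 1.57) for 3′ UTRs, so the interval of the first then held 1.

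**Figure D1:**
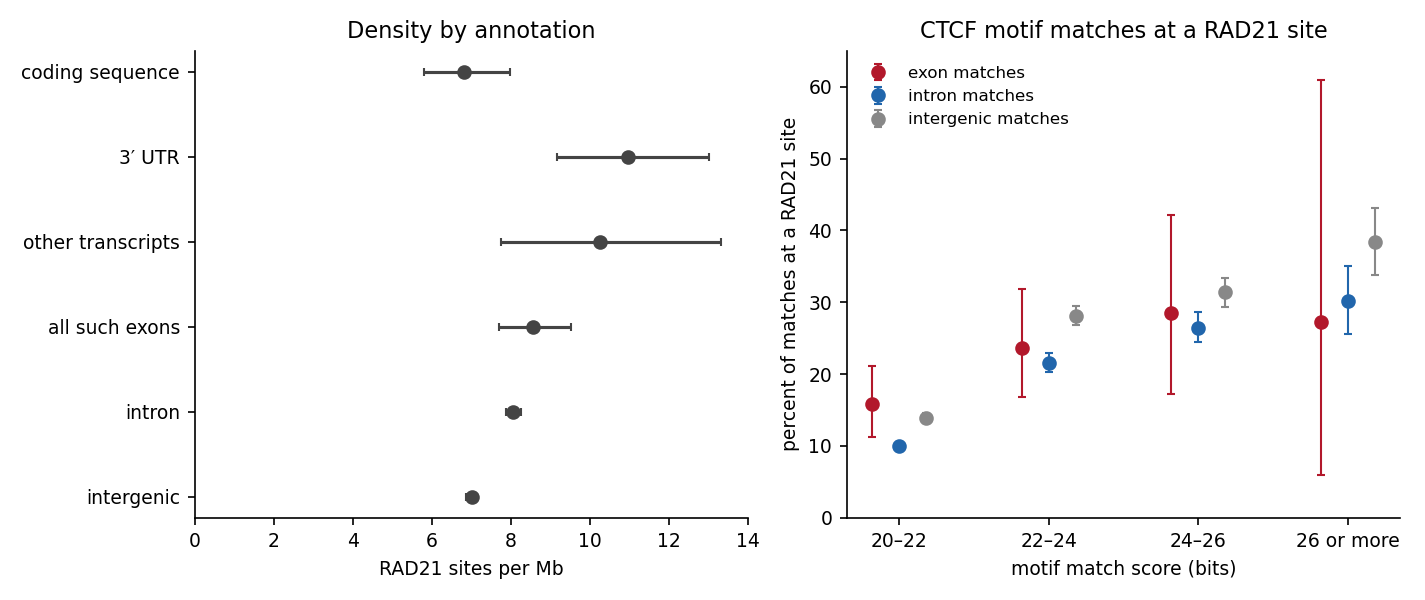
Left, RAD21 sites per Mb of sequence more than 1000 bp from starts and ends, with 95% intervals; coding sequence had 6.82 sites per Mb and 3′ UTRs 10.97. Right, percent of CTCF motif matches at a RAD21 site, against the score of the match in bits, in exons, introns and between genes, with 95% intervals. The share rose with the score in introns from 9.98% to 30.1%, and the exon values lay within their intervals of the intron values from 22 bits upward.

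At the main threshold, most exon sites had no CTCF motif. This threshold was set on random windows of the genome. The paper, with a matrix from a motif database and its own cutoff, reports the motif at most RAD21 sites, so the shares are not alike in measure. A motif centre lay within 150 bp of the summit at 110 of 350 exon sites (31.4%, 26.6 to 36.6), against 35.1% of all autosomal sites and 36.1% of intron sites. The difference from intron sites was -4.68 percentage points (-9.46 to 0.491). At the looser threshold 289 exon sites had a match (82.6%), against 80.8% of all sites. Coding sites (50 of 156, 32.1%) and 3′ UTR sites (38 of 132, 28.8%) differed by 3.26 points (-7.43 to 13.7).

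Among sites listed in ESCs alone, the motif was less frequent in exons than in introns. It was found at 51 of 159 such exon sites (32.1%, 24.9 to 39.9), against 45.0% (43.1 to 46.9) of intron sites listed in ESCs alone, a difference of -12.9 points (-19.9 to -5.09). Among sites of both lists the shares were 34.6% and 36.04%, and among sites listed in EBs alone 23.4% and 18.5%, with intervals of both differences that held 0. For the whole ESC list the difference was -8.27 points (-13.7 to -2.35). It was negative in each of 4 bands of score, with intervals that held 0. At the looser threshold the shares among sites listed in ESCs alone were 78.6% and 83.3%, and the interval of the difference held 0 (-4.70 points, -11.8 to 1.14). Besides the rescaled calls given below, 43 differences between exon and intron sites were computed, without adjustment. Of these, 3 had an interval without 0. They were those at the main threshold for sites listed in ESCs alone and for the whole ESC list, and the share higher in EBs given below.

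**Figure D2:**
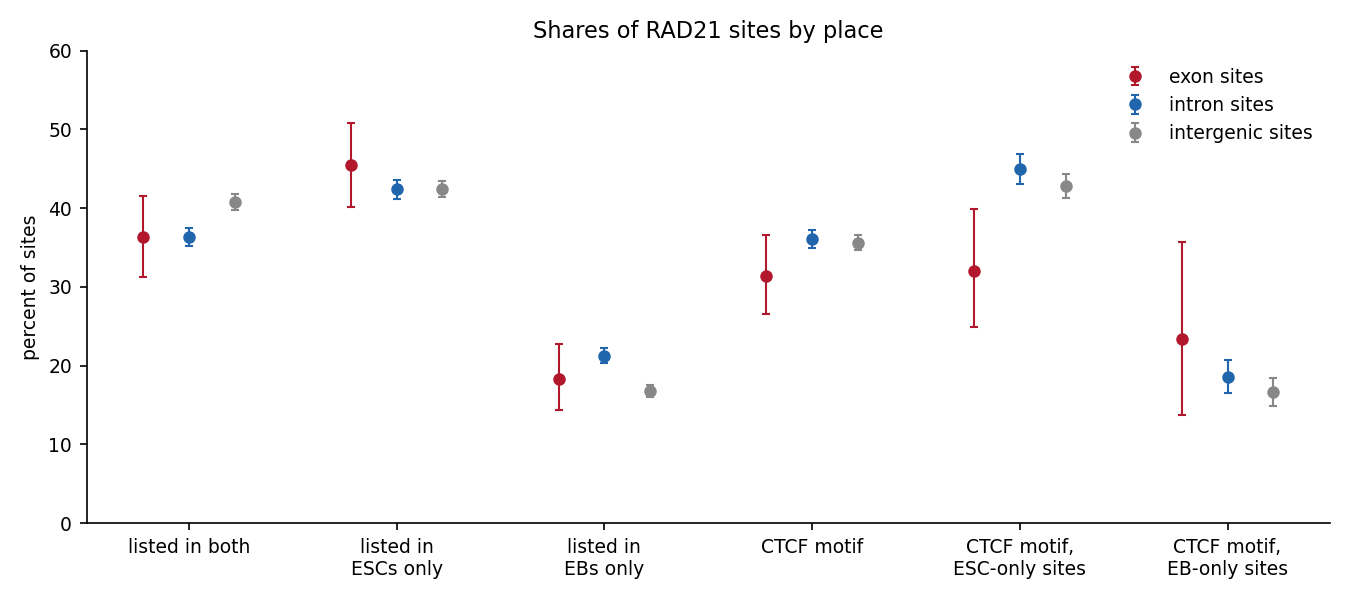
Percent of exon, intron and intergenic RAD21 sites in each list and with a CTCF motif, with 95% intervals. The intervals of exon and intron sites overlap except for the motif among sites listed in ESCs alone, 32.1% in exons and 45.0% in introns at the main threshold. Intergenic sites are more often in both lists than intron sites (40.8% against 36.3%). They are less often listed in EBs alone (16.8% against 21.3%).

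Seen from the motif, exons held few matches, and a larger share of these was occupied. Exons held 430 matches, 10.5 per Mb, against 19.4 per Mb in introns, a ratio of 0.541 (0.491 to 0.596). In coding sequence the ratio was 0.277 (0.230 to 0.330). At the looser threshold exons and introns held alike, 127 and 124 matches per Mb. Of the exon matches, 87 (20.2%, 16.5 to 24.3) had a RAD21 summit within 150 bp, against 15.3% (14.8 to 15.9) in introns and 20.5% (19.9 to 21.1) between genes. Of the 114 matches wholly in coding sequence, 28 did (24.6%, 17.0 to 33.5).

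By strength of the match, the interval of the exon share lay above that of introns in the weakest class alone. Of the exon matches of 20 to 22 bits, 15.8% (11.3 to 21.2) lay at a site, against 9.98% (9.39 to 10.6) in introns. Of those of 22 to 24 bits the shares were 23.7% (16.8 to 31.8) and 21.6% (20.3 to 22.9), and of those of 24 to 26 bits 28.6% (17.3 to 42.2) and 26.5% (24.5 to 28.6). From 26 bits upward the exon share was below that of introns, 27.3% (6.02 to 60.97) against 30.1% (25.5 to 35.05). At the looser threshold the order turned, with 5.23% (4.64 to 5.87) of exon matches and 5.61% (5.47 to 5.75) of intron matches at a site. Exon sites with a motif numbered 2.69 per Mb and those without one 5.88 per Mb, or 0.925 (0.757 to 1.12) and 1.14 (0.997 to 1.30) times the intron values.

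Exon matches that were far from any listed site also held more RAD21 than IgG reads. At the 335 exon matches with no summit within 1000 bp, ESC RAD21 reads within 250 bp, scaled to reads per 1000000 (RPM), were 2.39 times the IgG reads (2.20 to 2.60) and EB reads 1.85 times (1.64 to 2.10). At intron matches of the same kind the ratios were 1.96 (1.93 to 1.99) and 1.56 (1.53 to 1.59). Unlisted matches are therefore not matches without RAD21 reads.

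The summit stood to one side of the motif, as it did in introns. At the 110 exon sites with a motif the median offset was 56 bp (45.5 to 63.5) toward the 3′ side of the motif, and 94 summits (85.5%, 77.5 to 91.5) lay on that side. At intron sites the median was 46.5 bp (43.5 to 48.5), and 79.4% (77.7 to 81.0) lay on that side. Sides are given with the motif read as in the consensus above. The paper describes RAD21 on the 5′ side of the motif, and the reason for this difference was not tested. Klf10, with its summit 73.5 bp to the 3′ side, was of the common kind, and D6Wsu163e, at -74.5 bp, of the other.

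Over all exon sites with a motif, the motif itself mostly lay in the exon, and on either strand. At 78 of the 110 sites (70.9%, 61.5 to 79.2) the whole motif was in the exon. The 110 pool coding exons with the longer exons of 3′ UTRs. Coding sites with a motif numbered 50. Counted from the motif, 28 matches wholly in coding sequence lay at a RAD21 site, whatever the place of its summit. The 28 matches are therefore not a part of the 50 sites. The motif ran on the strand of the gene at 47 of the 110 (42.7%, 33.3 to 52.5), as it did in Lrrk1 and Yipf7. In Klf10 it ran on the opposite strand. Of all motif matches in exons, bound or not, 46.4% (41.6 to 51.2) ran on the strand of the gene. Among matches in coding sequence on the strand of the gene, the first base fell on the first position of a codon in 6 matches. It fell on the second in 28 and on the third in 15. In that order, 2, 8 and 4 lay at a RAD21 site. For matches on the opposite strand, the base that came first along the gene fell on these positions in 23, 26 and 14. Of those, 5, 7 and 2 lay at a site.

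**Figure D3:**
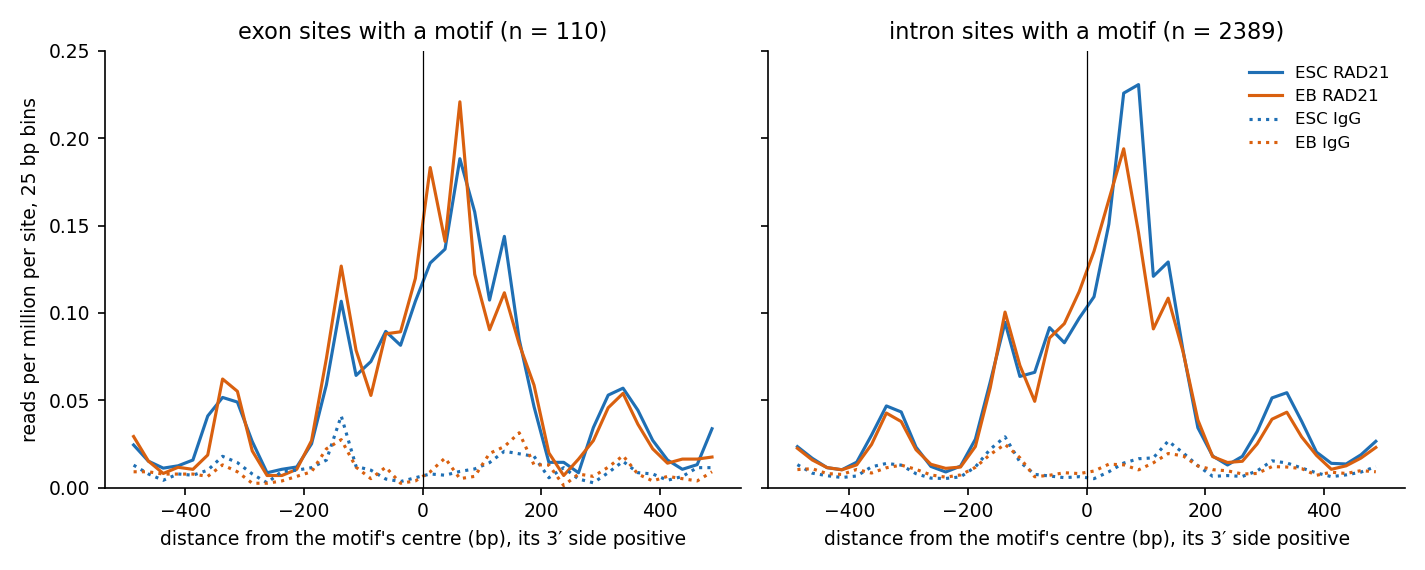
RPM per site in bins of 25 bp against the distance from the centre of the CTCF motif (bp, 3′ side positive), for the 110 exon sites and the 2389 intron sites with a motif in all 4 libraries. In exons both RAD21 libraries are highest 62.5 bp to the 3′ side, and all 4 libraries have smaller rises beyond it.

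Around the motif the RAD21 reads had several rises, and the IgG reads had some of them. In exons the ESC RAD21 reads reached 0.188 RPM per site and the EB RAD21 reads 0.221 in the bin 62.5 bp to the 3′ side. IgG reads there were 0.00938 in ESCs and 0.00525 in EBs. A second rise stood 137.5 bp to the 5′ side, at 0.107 in ESC RAD21, 0.127 in EB RAD21, 0.0411 in ESC IgG and 0.0276 in EB IgG. Another stood 137.5 bp to the 3′ side, at 0.144 in ESC RAD21, 0.112 in EB RAD21, 0.0209 in ESC IgG and 0.0236 in EB IgG. A further one stood 337.5 bp to either side, at 0.0517 and 0.0570 in ESC RAD21. Thus the IgG libraries had no rise in the bin of the RAD21 maximum. The ESC IgG reads were highest in the bin 137.5 bp to the 5′ side, and the EB IgG reads 162.5 bp to the 3′ side (0.0315).

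More exon sites were listed in ESCs alone than in both cell types or in EBs alone. Both lists held 127 exon sites (36.3%, 31.2 to 41.6, against 38.4% of all sites), the ESC list alone 159 (45.4%, 40.1 to 50.8, against 42.3%) and the EB list alone 64 (18.3%, 14.4 to 22.7, against 19.3%). The share in both lists differed from that of intron sites by -0.0353 points (-5.04 to 5.25). A site counted where either summit lay in the exon, and both summits lay in such an exon at 104 of the 127. Of all 273 exon summits in the ESC list, 41.8% (35.8 to 47.9) had an EB summit within 250 bp, against 46.3% of intron summits. In ESCs this share rose with the score of the site, from 20.9% at scores of 50 to 70 to 8 of 8 sites at 250 or more.

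Coding sites were listed in EBs alone less often than 3′ UTR sites. This held for 20 of 156 coding sites (12.8%, 8.01 to 19.1) and for 29 of 132 3′ UTR sites (21.97%, 15.2 to 30.0), a difference of -9.15 points (-18.1 to -0.404). It was 1 of 3 differences between them, without adjustment, and the share in both lists differed by -2.51 points (-13.5 to 8.47). GC content moved with the lists. Median GC within 250 bp was 50.7% at exon sites listed in ESCs alone, 46.1% at those in both lists and 40.3% at those listed in EBs alone, and it was 48.4% at coding and 46.3% at 3′ UTR sites. Its part in the difference was not tested.

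**Figure D4:**
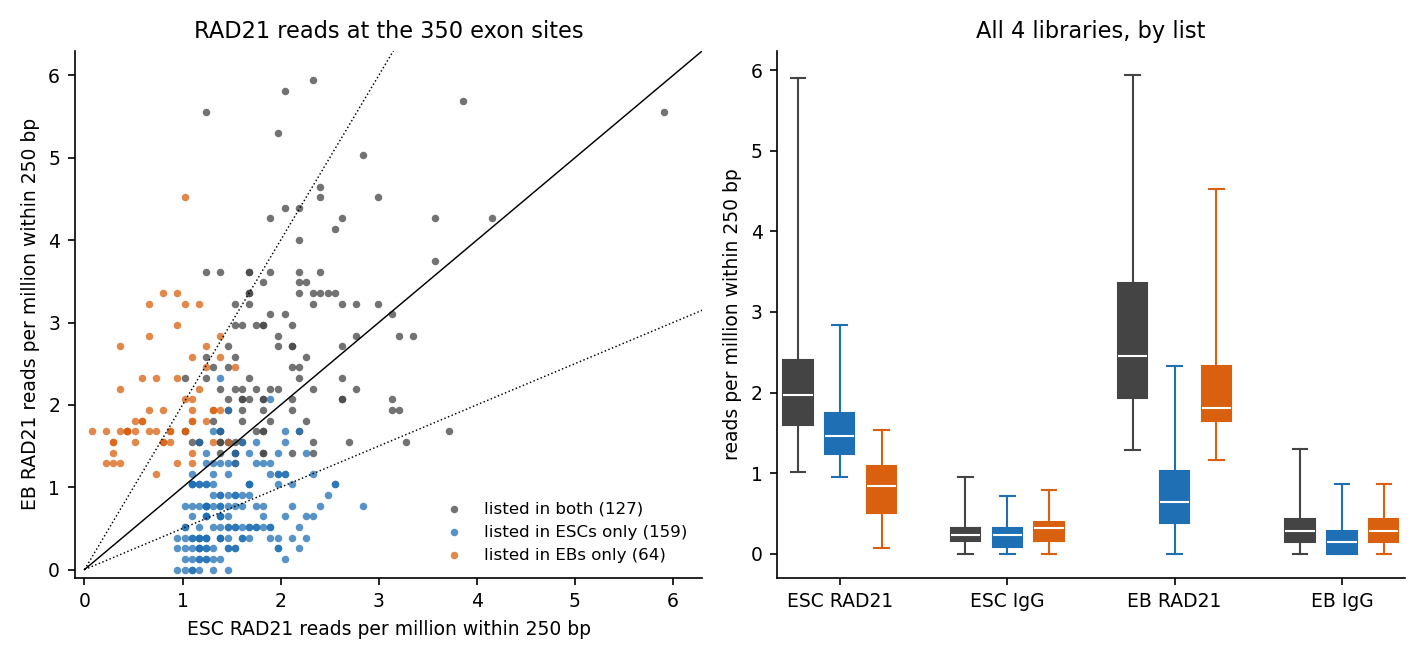
Left, RAD21 RPM within 250 bp of the summit in ESCs and EBs at each of the 350 exon sites, coloured by list, with lines at equal values (solid) and at 2-fold differences (dotted). Right, the same reads and the IgG reads in all 4 libraries, as boxes of the middle of the values with the median in white and whiskers to the lowest and highest; sites of both lists have the highest medians, 1.97 in ESC RAD21 and 2.45 in EB RAD21.

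Exon sites held few reads each. A median of 20 ESC reads (range 1 to 81) and 12 EB reads (0 to 46) lay within 250 bp of the summit, against 3 ESC and 1 EB IgG reads. In RPM the medians were 1.46 in ESC RAD21, 1.55 in EB RAD21, 0.238 in ESC IgG and 0.144 in EB IgG. Sites were listed because RAD21 exceeded IgG, and this excess is a consequence of the listing. Intron sites had the same medians of RAD21 reads, 20 and 12. Random exon windows held medians of 3 ESC RAD21 reads and 1 EB RAD21 read.

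Pooled over the exon sites listed in 1 cell type alone, RAD21 reads exceeded IgG reads in the other. At the 159 exon sites listed in ESCs alone, EB RAD21 reads were 4.03 times EB IgG reads after scaling to depth (3.45 to 4.71), against 3.04 (2.94 to 3.14) at intron sites of that kind. At the 64 listed in EBs alone, ESC RAD21 reads were 2.67 times ESC IgG reads (2.31 to 3.09), against 2.52 (2.44 to 2.60) in introns. Above the 95th percentile of random windows lay 76 of the 159 sites (47.8%) and 46 of the 64 (71.9%), against 44.0% and 66.1% of the intron sites of these kinds. A site absent from a list was thus often below the threshold of the list rather than without reads.

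Differences between the cell types went in both directions. A site was called where EB over ESC RPM, with 1 read added to each, differed at least 2-fold and the interval of the ratio without it excluded 1. By this rule 51 exon sites (14.6%, 11.05 to 18.7) were higher in EBs, against 17.5% of all sites, and 60 (17.1%, 13.3 to 21.5) were lower, against 17.7%. In introns 19.8% were higher, a difference of -5.20 points (-8.65 to -1.01) for exons. These calls draw on the reads that made the lists, and 37 of the 51 were at sites listed in EBs alone and 59 of the 60 at sites listed in ESCs alone. The median log2 ratio over the exon sites was -0.0048 (-0.14 to 0.13), and over intron sites 0.088 (0.057 to 0.13).

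The balance of the calls depended on GC content. In the richest GC class, above 50.1%, lay 36.3% of exon sites and 17.5% of intron sites. With each GC class scaled by its own random windows, the exon sites called higher were 60 and those called lower 30, against 20.4% and 13% of all sites, and the median log2 ratio was 0.33 (0.19 to 0.42) in exons and 0.30 in introns. With the ratio of IgG reads over the surrounding 100 kb taken off, they were 67 and 38, against 19.6% and 13.4% of all sites. With the median of random windows set to 0, they were 35 and 78, against 12.3% and 23.6%. The share higher in EBs stayed below that of introns under GC scaling (-4.52 points, -8.24 to -0.108). With the local IgG ratio taken off, the interval held 0 (-2.67, -6.58 to 1.89). Under GC scaling the share lower in EBs was also below that of introns, 8.57% against 12.9% (-4.29 points, -6.93 to -0.801). Without scaling, the interval of that difference held 0 (-0.118, -3.82 to 4.27). With GC classes scaled, exon sites were thus called less often than intron sites in both directions. For lower calls this did not extend to the other scalings. The interval held 0 with the local IgG ratio taken off (-1.79 points, -4.75 to 1.98). It also did with the median of random windows set to 0 (-1.19, -5.36 to 3.57). Among the 156 coding sites 20 (12.8%) were called higher and 34 (21.8%) lower, and 21 and 17 at equal GC. Among the 132 3′ UTR sites 22 (16.7%) were called higher and 17 (12.9%) lower, and 26 and 8 at equal GC. Of the 12 named sites called higher, 10 kept the call at equal GC, and of the 12 called lower, 7 did.

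**Figure D5:**
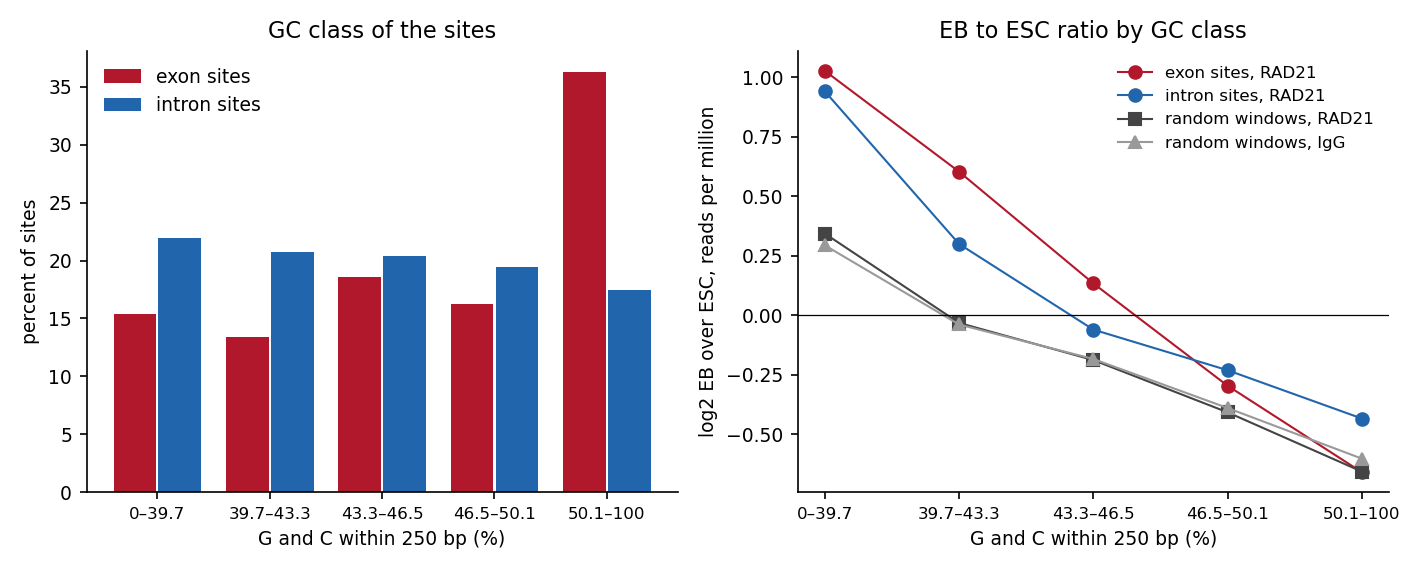
Left, percent of exon and intron sites in 5 classes of GC content within 250 bp; 36.3% of exon sites are in the richest class. Right, EB over ESC reads, scaled to depth and on the log2 scale, against the same classes, as the median over sites and as the pooled value over random windows; all lines fall, for random windows from 0.34 to -0.66 (RAD21) and from 0.29 to -0.60 (IgG).

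The exon site of the highest ESC score, which is -10 times the log10 of the p-value of the peak, lay in the 5′ UTR of BB014433 (chr8:15043004, exon 2 of 2) with a score of 606. It held 5.91 RPM in ESC RAD21, 5.56 in EB RAD21, 0.317 in ESC IgG and 0.289 in EB IgG. Its ESC value was the highest of all exon sites, and the interval of the EB to ESC ratio held 1 (0.941, 0.634 to 1.38). The next ESC scores lay in 3′ UTRs. Rnf150, a RING finger protein, held 4.16 RPM in ESC RAD21 and 4.26 in EB RAD21. Rab37, a small GTPase of secretion, held 3.21 and 1.94, and Rdh13, a retinol dehydrogenase, 3.86 and 5.68. Dcp1b, which takes part in the removal of mRNA caps, held 3.57 and 4.26, and Obfc1, of the telomeric CST complex, 3.57 and 3.75. IgG at these 5 sites lay between 0 and 0.722 RPM, and none of the ratios was called, although that of Rdh13 was at equal GC (2.32, 1.52 to 3.53). Of these 5 sites, Rnf150 and Dcp1b had the motif printed above.

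Coding exons held 3 of the 10 highest ESC scores. Slc47a1, a transporter that exports drugs and toxins, had its site in exon 16 of 18 (chr11:61162947-61163041, 95 bp), with 2.99 RPM in ESC RAD21, 3.23 in EB RAD21, 0.238 in ESC IgG and 0.289 in EB IgG. The interval of the ratio held 1 (1.08, 0.630 to 1.82), and all 3 coding transcripts that span the site hold the exon. Mrc2, an endocytic collagen receptor, had its site in exon 26 of 30, with 3.28 and 1.55 RPM, 2.12-fold lower in EBs (1.10 to 4.395), which the rule did not call once 1 read was added. At equal GC the interval of its EB to ESC ratio held 1 (0.745, 0.359 to 1.43). Dennd5b, an exchange factor for Rab proteins, had its site at the start of its last coding exon, with 3.35 and 2.84 RPM. None of the 3 had a motif at the main threshold, and the best match at Slc47a1 scored 19.2 bits.

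The highest EB scores included sites that were higher in EBs. Edem3, which acts in the degradation of misfolded glycoproteins, had the highest (339), in its 3′ UTR, with 2.84 RPM in ESC RAD21 and 5.04 in EB RAD21 (ratio 1.77, 1.11 to 2.84), under the 2-fold limit. Pard3b, a cell polarity protein, had 2.33 and 5.94 RPM (ratio 2.55, 1.59 to 4.13), at the end of a short transcript, and the call ended at equal GC, where the log2 ratio was 0.99. Ankrd11, a chromatin cofactor, had 1.97 and 5.30 RPM (ratio 2.69, 1.62 to 4.55), in an exon of a non-coding transcript. Fignl1, an ATPase of DNA repair, had 2.41 and 4.65 RPM (ratio 1.93, 1.17 to 3.20), and was called only at equal GC (2.57, 1.55 to 4.25). All 4 were listed in both cell types, and GC around them lay between 35.5% and 49.5%.

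Among the coding sites named as higher in EBs were those of Nbea and Dtl. Nbea encodes neurobeachin, a scaffold protein of neurons, and held 2 sites 7686 bp apart. The one in exon 21 of 58 (chr3:55812158-55812350), listed in EBs alone, had 1.02 RPM in ESC RAD21, 4.52 in EB RAD21, 0.0794 in ESC IgG and 0.433 in EB IgG, a ratio of 4.43 (2.32 to 8.91). Its motif, printed above, scored 23.5 bits and stood in the intron. The one in exon 24, in both lists, had 2.04 and 5.81 RPM, a ratio of 2.85 (1.74 to 4.74), and no motif at the main threshold. Both were higher in EBs, at a GC of 40.1% and 32.5%. Dtl, a subunit of the ubiquitin ligase that limits DNA replication to 1 round, had 0.656 RPM in ESC RAD21 and 3.23 in EB RAD21, a ratio of 4.92 (2.22 to 12.0), in exon 6 of 15.

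Other sites higher in EBs lay in longer exons. BC052040 had 1 ESC RAD21 read against 13 EB reads, a ratio of RPM of 23.0 (3.46 to 979). Atp13a3, a P-type transport ATPase, had 0.365 and 2.71 RPM (7.44, 2.73 to 25.3), and Ndfip2, an adaptor of Nedd4 ubiquitin ligases, 0.365 and 2.20 (6.02, 2.13 to 20.9). Mrpl13, a protein of the mitochondrial ribosome, was listed in both cell types and had 1.24 and 5.56 RPM (4.48, 2.50 to 8.38). EB IgG at Mrpl13 was 0.866 RPM, against a median of 0.144 over the exon sites.

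Of the 5 sites of 1 list named as lower in EBs, 4 lay in coding exons, and 3 of them had 0 EB reads, which is taken to allow 3. The folds given for these 3 divide by that allowance, with the lower limit of the ratio's own interval after them. 4921517D22Rik had 20 ESC RAD21 reads (1.46 RPM), at least 3.76-fold lower in EBs (2.79). Acsf3, a mitochondrial acyl-CoA synthetase, had 18, at least 3.39-fold lower (2.48), and Rnf17, a protein of male germ cells, had 16, at least 3.01-fold lower (2.18). EB IgG was also at 0 reads at these 3 sites. Cul9, a cullin, had 2.19 RPM in ESC RAD21 and 0.258 in EB RAD21, from 2 reads, 8.47-fold lower (2.15 to 73.1), in exon 28 of 42. Spata1, a gene linked to spermatogenesis, had 2.04 and 0.129 RPM in its 3′ UTR, from 1 EB read, 15.8-fold lower (2.61 to 646), although its motif was among the strongest named (24.4 bits). Among sites of both lists, Vwf, the von Willebrand factor of blood clotting, was the only one called lower, with 3.72 and 1.68 RPM, 2.21-fold lower (1.19 to 4.44). At equal GC that call ended (ratio 0.599, 0.299 to 1.12), and no site of both lists was called lower.

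In 10 genes there were 2 exon sites each, and no gene held more. Both sites were called higher in Nbea and in Ndfip2 and lower in Vwf and in Tnfrsf1b, a receptor of tumour necrosis factor. At equal GC both calls held in Nbea, 1 of them held in Ndfip2, and those of Vwf and Tnfrsf1b ended. The sites of Dgke, of Thsd7a, of Specc1, of Nek8 and of Tmem170b lay within 1000 bp of each other, from 257 bp in Dgke to 880 bp in Tmem170b. Those of Vwf were 57080 bp apart. The windows in which reads were counted overlap for Dgke and for Thsd7a, at 428 bp.

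Of the gene groups, cohesin genes held 2 exon sites and the pluripotency genes none. Both were in coding exons. Pds5a, which regulates the release of cohesin, had 0.437 RPM in ESC RAD21 and 1.68 in EB RAD21 (ratio 3.84, 1.36 to 12.3), in exon 2 of 32 and 1020 bp from a transcription start. Smc1b, the SMC1 subunit used in meiosis, had 1.68 and 3.62 RPM (ratio 2.16, 1.20 to 3.92), in exon 21 of 25. Both were called higher in EBs, and neither had a motif. At equal GC the call of Smc1b ended (ratio 1.70, 0.945 to 3.09) and that of Pds5a held (6.06, 2.15 to 19.4). These genes make up 0.0554 Mb of the exon space, so that 2 sites are 36.1 per Mb, with an interval from 4.38 to 130.5. The 26 pluripotency genes hold 0.0455 Mb, where 0 sites allow up to 81.1 per Mb. The clustered protocadherins, whose variable exons are known for CTCF sites, also held 0, which allows up to 56.3 per Mb under this rule.

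In most larger groups the interval of the density held the value of all exons. Zinc finger factors held 10 sites (7.80 per Mb, 3.74 to 14.3), and channels and transporters 16 (8.05, 4.60 to 13.1), against 8.57 for all exons. Signalling ligands and receptors held 9 (13.1, 6.01 to 24.9), extracellular matrix genes 3 (4.61, 0.951 to 13.5) and cytoskeleton and motor genes 3 (2.96, 0.610 to 8.65). The other cadherins held 1 (3.64, 0.0921 to 20.3). Homeobox and related factors held 0, which allows up to 13.5 per Mb. Chromatin regulators held 0 in 0.543 Mb, which allows up to 6.79 per Mb, below the value for all exons. That was 1 of 11 groups examined, without adjustment. The 0 depends on the list of 105 genes used for the group. Ankrd11, named above as a chromatin cofactor with an exon site, was not in that list.

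Within these groups the sites of highest score were of all kinds. Slc4a3, an anion exchanger, had 3.14 RPM in ESC RAD21 and 3.10 in EB RAD21 in its 3′ UTR, and Slc44a5 had 3.21 and 2.84, and neither ratio was called. Tgfbr2, the type II receptor of TGF-beta, had 1.39 and 2.84 RPM (ratio 2.05, 1.06 to 4.01), called higher, with 0.714 RPM of ESC IgG. Bmpr1b, a BMP receptor, had 2.19 and 4.005 RPM (1.83, 1.07 to 3.13), and Ephb2, a receptor of ephrins, 2.33 and 1.55 (0.664, 0.312 to 1.33). The zinc finger genes Zbtb39 and Zbtb7c were called lower, with 1.90 RPM in ESC RAD21 at both and 0.517 and 0.388 in EB RAD21, and Zfp652 had 2.33 and 1.16 (0.498, 0.209 to 1.07). Frem2, a matrix protein, was called lower in coding exon 17 of 24, with 1.68 and 0.517 RPM, and Hmcn2 in coding exon 84 of 98, with 1.17 and 0.258. The calls of Zbtb39, Zbtb7c, Frem2 and Hmcn2 all ended at equal GC, where the upper limits of the ratios were 1.04, 1.05, 1.20 and 1.49. Col4a3, a chain of type IV collagen, had 2.55 and 4.13 RPM (1.62, 0.971 to 2.69) in a non-coding exon with a motif of 23.9 bits. Syne2, Myom3 and Kif21b, of the cytoskeleton, were not called. Pcdh8, a protocadherin, had 0.948 RPM in ESC RAD21 and 0 EB reads in a coding exon of 69.5% GC. It was at least 2.45-fold lower by the allowance of 3 reads, with a limit of 1.72. The call held under GC scaling, with an upper limit of the ratio of 0.917. All sites above 50.1% GC share the same scaling factor, so a site this rich in GC was not matched in GC.

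Sites lay on both sides close to the distance limits. Just inside the limit to a transcription start lay Tril, a gene of 1 coding exon, at 1004 bp, Chid1 at 1008 bp and Pds5a at 1020 bp. Tril had 1.09 RPM in ESC RAD21 and 0 EB reads, at least 2.82-fold lower by the same allowance, with a limit of 2.02. Its GC was 65.1%, so that, as for Pcdh8, GC scaling did not match it in GC (upper limit of the ratio 0.779). Just outside lay summits of Exoc1 at 992 bp, with an EB score of 96.8, and of Sept9 at 961 bp, with an ESC score of 453. Just inside the limit to a 3′ end lay Thada at 1006 bp, Sh3tc2 at 1008 bp and Cdc25a at 1020 bp, and just outside Rpl22 at 990 bp, Osbpl3 at 981 bp and Nxnl1 at 976 bp.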

How the data were processed

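RAD21 was mapped by ChIP-seq, with an anti-GFP antibody against GFP-tagged RAD21, in 1 ESC and 1 EB library, each with 1 IgG library. The authors aligned 35 base reads to mm9, and deposited 1 position per read. The aligner is not given in the sources used here. Column 4 of the read files (0 or 1, meaning not stated) was not used. The authors called peaks with MACS against the IgG library of the same cells and deposited a score for each peak (-10 times log10 of its p-value) and a signal for each summit (the height of piled-up reads, not scaled between libraries). No 2 reads shared a position and strand. The EB IgG file ended early on chromosome X, and 7 broken lines of the ESC IgG file were skipped, so only autosomes were analysed.

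Summits were placed on GENCODE annotation of mm9. Reads were moved to the centre of their fragment, whose length came from the cross-correlation of the strands (205 bp in ESC RAD21, 196 bp in EB RAD21), counted within 250 bp of a summit and scaled to reads per 1000000 autosomal reads (RPM). The autosomes held 13714772 ESC RAD21, 7740389 EB RAD21, 12602155 ESC IgG and 6929293 EB IgG reads. A weight matrix for the CTCF motif was learned from sequences around ESC summits. Sites on odd chromosomes were scored with the matrix learned on even chromosomes and the reverse, at thresholds met by 1e-05 (main) or 0.0001 (looser) of random positions. Background windows (50000) lay at least 2000 bp from any site. Intervals at the 95% level are exact Clopper-Pearson for shares, Newcombe for differences of shares, exact conditional for ratios of counts, and from order statistics for medians. They cover counting error only. With 1 library per group no test between cell types was possible. A site was called higher or lower where the EB to ESC ratio of RPM, with 1 read added, was at least 2-fold and the interval of the ratio excluded 1. A count of 0 was taken to allow 3 reads. Scripts were tested on simulated data. Python 3.11.15, numpy 2.4.6, pandas 2.3.3 and scipy 1.17.1 were used.

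Sites named are the 10 of highest ESC score, the 6 of highest EB score, the 5 highest and 5 lowest by the ratio limit nearest 1 among sites of 1 list and up to 3 each among sites of both, those in cohesin and pluripotency genes and in clustered protocadherins, the 3 of highest score in each other gene group, and those nearest the distance limits. The 6 coding sites shown for their motif score and the genes with 2 sites were chosen after their values were seen. The members and the gene lists were chosen with earlier results of these data known. Alternatives tried were other distance, merging, motif, score, window and scaling choices.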

Additional observations from a re-analysis of the deposited data

Results flagged for a closer look

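At 3 of the 48 named sites, RAD21 was above IgG in one cell type and below it in the other. The difference was not tested, since each group was 1 library. At Spata1 (chr3:146149677) EB RAD21 was 0.129 RPM against 0.433 in EB IgG, from 1 and 3 reads, and ESC RAD21 2.04 against 0.238. At Hmcn2 (chr2:31291336) EB RAD21 was 0.258 RPM against 0.289 in EB IgG, from 2 reads each, and ESC RAD21 1.17 against 0.317. At Atp13a3 (chr16:30314447) ESC RAD21 was 0.365 RPM against 0.397 in ESC IgG, from 5 reads each, and EB RAD21 2.71 against 0.577. Over the 350 exon sites, 16 had RAD21 above IgG in ESCs and below in EBs, and 4 the reverse. The same counts were not made over all 18691 sites, so they are not given as a trait of exon sites. Of the exon sites, 159 were listed in ESCs alone and 64 in EBs alone, and the EB libraries held fewer reads.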

How the results depend on the processing

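Of 61 recomputed values of 12 results, 46 stayed within the interval of the value given (counts: within 1.5 times it) and 15 moved. The sign changed for the median ratio, the motif difference and the difference in the share of both lists (0.845 points with peaks that overlap, 2.31 at a score of at least 100), whose intervals held 0 at the outset. The number of exon sites was 156 with coding sequence only, 229 more than 2000 bp from starts and ends, 149 at a score of at least 100 and, added after seeing the data, 153 in exons neither first nor last. The share with a CTCF motif was 82.6% at the looser threshold and 22.9% within 75 bp, and its difference from introns 1.12 points at the looser threshold. The share of motif matches at a site was 5.23% at the looser threshold. EB over ESC reads had a median log2 value of -0.17 within 100 bp, -0.25 with the median of random windows set to 0, 0.33 scaled within GC classes and 0.33 with the local IgG ratio taken off. Sites lower in EBs were 30 and 38 under the last 2, which also moved the split of calls from 51 higher and 60 lower to 60 and 30, and 67 and 38. The density over introns was 0.846 for coding sequence only. Placing shared sites by the ESC summit, also added later, left 337 sites with 33.8% in both lists. The causes were not tested. Depth limits each site: medians of 20 and 12 reads leave wide intervals, and 1 library per group gives no spread between replicates. No paired analysis was possible because each group was 1 library.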
